A study of Mus musculus with 4 samples.

Results

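The genes described here are 8 regulators of mitochondrial biogenesis: the coactivators Ppargc1a and Ppargc1b, the nuclear receptors Esrra, Ppara and Ppard, the DNA-binding factors Nrf1 and Gabpa, and Tfam. They were chosen by name for their role, though earlier results of these data were known. All 8 were found among the 13825 genes of the count table. RNA came from tibialis anterior (TA) muscle of adult male mice, either wild type (WT, C57BL/6J) or carrying a global knockout of Fgf21 (FGF21KO), a hormone gene that stressed muscle can switch on. A piece of the sciatic nerve was removed on one side (Den), and the muscle was taken 14 days later, with the muscle of the opposite leg as the control (Sham). The groups were WT_Sham (WS), WT_Den (WD), FGF21KO_Sham (KS) and FGF21KO_Den (KD). Each group was 4 muscles pooled into 1 library, so the differences between muscles were averaged before sequencing. The sources differ on whether the control leg was operated without cutting the nerve or left untouched, and sham and denervated pools may hold legs of the same mice. The genetic background of the knockout mice was not given in the sources used here. The level of Fgf21 was not analysed here, and it could not serve as a check of the genotype labels.

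The PGC-1 coactivators, encoded by Ppargc1a and Ppargc1b, bind no DNA themselves. They are recruited by transcription factors and bring in enzymes that open chromatin and start transcription. Among their partners are ERRα (Esrra), nuclear respiratory factor 1 (Nrf1) and GABPα (Gabpa), which act on nuclear genes of the respiratory chain, and the fatty acid receptors PPARα (Ppara) and PPARδ (Ppard), which act on genes of fat oxidation. Tfam enters the mitochondrion, where it packs mitochondrial DNA and starts its transcription. In skeletal muscle this network is known for its rise with endurance exercise and for its high activity in oxidative fibres.

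After denervation, Esrra, Ppara and Ppargc1b fell the most, and Esrra fell the furthest, to 0.496 of its sham level. With the scaling used here, both denervated libraries lay below both sham libraries in every regulator but Ppargc1a. Ppargc1a was higher in the denervated WT library and near its sham level in the denervated FGF21KO library, the latter not with total counts as the scale. Tfam and Ppard fell by small amounts, and Nrf1 and Gabpa did not pass the test. No regulator passed the test for genotype.

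Total counts over the genes analysed ran from 25249879 in WS to 34141303 in KS, and the 8 regulators had between 322 and 4206 counts in a library. Levels are counts brought to a common depth with TMM factors of edgeR (CPM). With 1 library per group, a ratio between 2 libraries has no replicate check, and its 95% interval covers counting error only. The test named below is the quasi-likelihood test of edgeR, with genotype and surgery as additive terms and p-values adjusted over 13084 genes. It treats the libraries of a surgery as replicates across genotypes. Runx1, Ncam1 and Gadd45a, known to rise after loss of the nerve, were higher in WD and KD than in WS and KS, with log2 folds of 6.55, 3.55 and 4.68. In bulk muscle, fewer cells of a type and less RNA per cell cannot be told apart.

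Sequence upstream of the start was given by RefSeq (GRCm38.p6) for 7 of the 8 regulators. The stretches of Ppargc1a, Esrra and Ppara are shown for their log2 folds over both genotypes with the settings reported. That of Ppargc1a was the only positive one, and Esrra and Ppara fell the most. The site of Tfam is shown because it is the one regulator with an ETS motif. The sequences read 5′ to 3′ on the gene's own strand, with matched motifs in capitals. The Ppargc1a stretch lies at chr5:51567727-51567875 on the minus strand, the Esrra stretch at chr19:6921814-6921958 on the minus strand and the Ppara stretch at chr15:85735714-85735775 on the plus strand. The 30 bases of Tfam, at chr10:71238073-71238102 on the minus strand, lie in an exon of another annotated Tfam transcript.
Ppargc1a: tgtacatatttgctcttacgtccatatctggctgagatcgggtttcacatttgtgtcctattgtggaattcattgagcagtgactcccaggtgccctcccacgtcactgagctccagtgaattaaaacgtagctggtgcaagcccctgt
Esrra: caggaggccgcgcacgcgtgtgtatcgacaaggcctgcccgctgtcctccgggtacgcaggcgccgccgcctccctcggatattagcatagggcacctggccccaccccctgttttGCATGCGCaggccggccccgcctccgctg
Ppara: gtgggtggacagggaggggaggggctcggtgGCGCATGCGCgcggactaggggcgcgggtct
Tfam: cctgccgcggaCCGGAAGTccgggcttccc

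The 250 bases before each start were searched on both strands for 5 motifs. Only exact matches to the letters given were counted, so shorter or variant forms of a motif were not looked for. The NRF1 motif GCGCATGC was found in 2.26% of the 32851 promoter windows of the mouse, and among the regulators in those of Esrra, from base -34 to -27, and of Ppara, from base -31 to -24. In Ppara it was matched on both strands in overlapping positions, which together span bases -31 to -22. The ETS motif CCGGAAGT, the kind bound by GABPα, was in 2.88% of windows and in that of Tfam, from base -47 to -40. The MEF2 motif TATTTATA was in 1.56% of windows and in 1 of the 2 windows of Nrf1. The ERR motif AAGGTCA, in 4.08% of windows, and the cAMP response element TGACGTCA, in 1.55%, were in no window of the regulators. Esrra and Ppara, the pair with the NRF1 motif, had the largest falls of the 8. Of the 495 tested genes with it, 23.8% were lower and 28.5% higher after denervation, beside 26.6% and 26.4% of all genes tested, and their median log2 fold was 0.05. These matches are letters in a window and were not tested for binding.

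Ppargc1a encodes PGC-1α, the coactivator that exercise and cold induce. Its level was 50.9 CPM in WS, 70.3 CPM in WD, 57.1 CPM in KS and 57.7 CPM in KD. WD stood above the other 3 libraries, which lay between 50.9 and 57.7 CPM. The log2 ratio for WD vs. WS was 0.46 (95% counting interval 0.36 to 0.57) and that for KD vs. KS was 0.02 (-0.08 to 0.11). Both depend on the scaling: they were 0.74 and 0.37 with total counts as the scale, and 0.60 and 0.18 with total counts without the mitochondrially encoded genes. Over both genotypes the log2 fold for denervation was 0.24 (SE 0.092), with an adjusted p-value of 0.0356, so Ppargc1a was the 1 regulator of 8 that rose, beside 26.4% of all genes tested. This call did not hold with DESeq2's Wald test, where the adjusted p-value was 0.192, nor with limma on the deposited log2 values at a pseudocount of 0.1, where it was 0.0527. Counts were per gene, so the several known PGC-1α isoforms cannot be told apart.

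Ppargc1b encodes PGC-1β, a close relative that shares most partners with PGC-1α. It was measured at 39.1 CPM in WS, 27.7 CPM in WD, 36.0 CPM in KS and 25.8 CPM in KD. Both denervated libraries lay below both sham libraries, with log2 ratios of -0.50 (-0.63 to -0.36) in WT and -0.48 (-0.62 to -0.35) in FGF21KO. The log2 fold over both genotypes was -0.49 (SE 0.090, adjusted p-value of 0.000111). The call was lost with total counts as the scale (log2 fold -0.17, adjusted p-value of 0.122). The pair of coactivators thus went opposite ways in WT. Their ratio per length, which no scaling changes, was 0.788 of Ppargc1a to Ppargc1b in WS and 1.53 in WD. In FGF21KO it was 0.958 in KS and 1.36 in KD, so per length Ppargc1a was the higher of the pair in both denervated libraries only. In CPM, with no division by length, Ppargc1a was the higher in every library. Pprc1, the remaining gene of the family, was measured at 22.6 to 23.7 CPM and did not pass the test (log2 fold 0.04, adjusted p-value of 0.732). Pprc1 was picked for its family after its values were seen.

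**Figure D1:**
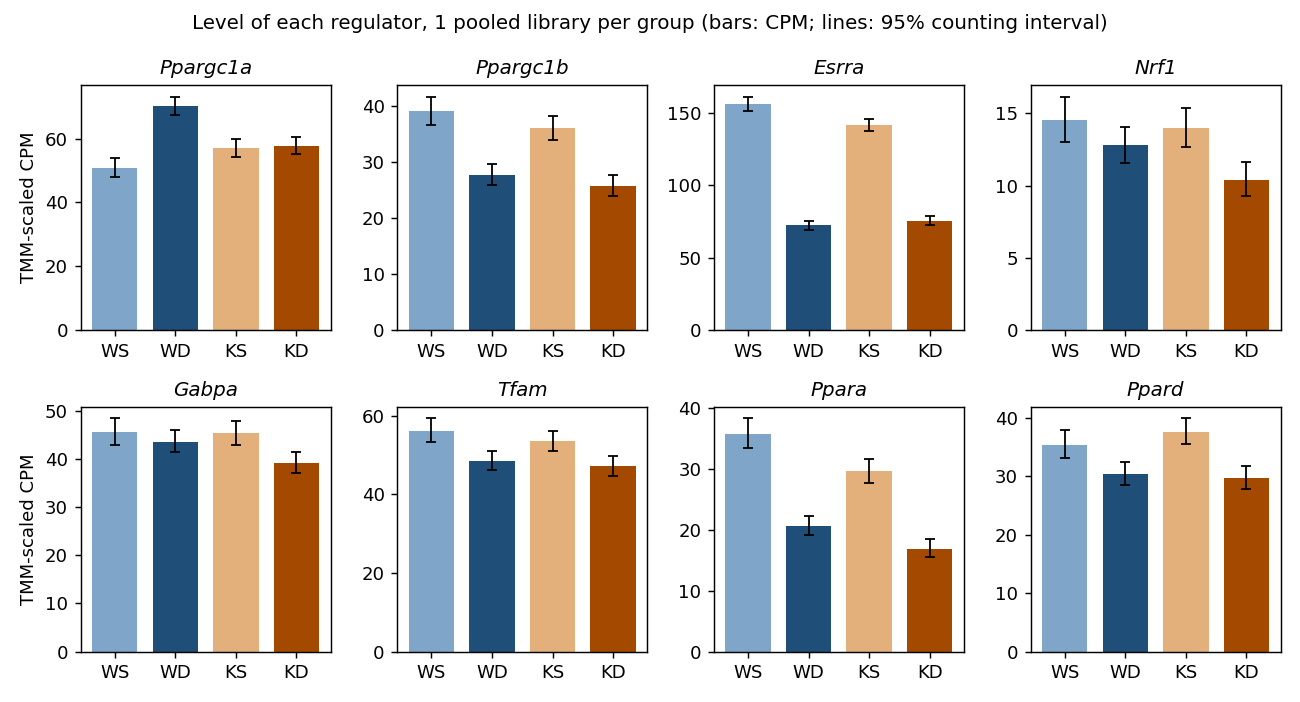
TMM-scaled CPM of each of the 8 regulators (y axis, linear from 0, a scale of its own in each panel) in the 4 libraries WS, WD, KS and KD (x axis), 1 pooled library per group, with 95% counting intervals as black lines. Ppargc1a was highest in WD at 70.3 CPM. Each of the other regulators was lower in WD and KD than in WS and KS, and Esrra, Ppara and Ppargc1b fell the most.

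Esrra encodes ERRα, an orphan receptor that works with PGC-1α on genes of oxidative metabolism. Its level was 156 CPM in WS, 72.2 CPM in WD, 142 CPM in KS and 75.3 CPM in KD. The sham libraries stood far above the denervated libraries, with nothing between 75.3 and 142 CPM. The log2 ratio was -1.11 (-1.19 to -1.04) for WD vs. WS and -0.91 (-0.99 to -0.84) for KD vs. KS. Over both genotypes the log2 fold was -1.01 (SE 0.076, adjusted p-value of 7.08e-10). Esrra was the 1 regulator called lower with the study's threshold of a 2-fold change, beside 6.15% of all genes tested. No regulator was called higher by that rule, beside 6.8% of all genes. It was also the 1 regulator at least 2-fold lower in WD vs. WS, beside 7.52% of genes, and none reached 2-fold in KD vs. KS, beside 6.07%. Its fold sat at the threshold, and with total counts as the scale it was -0.69, which no longer counts as 2-fold but still passed the test (adjusted p-value of 1.89e-05). In the annotation, 73 bases or 1.66% of the Esrra exons are shared with Trmt112 on the opposite strand, which was at 16.8 to 25.8 CPM.

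Ppara encodes PPARα, the receptor that turns on fatty acid oxidation in fasting. It was measured at 35.8 CPM in WS, 20.7 CPM in WD, 29.6 CPM in KS and 16.9 CPM in KD. Here too the denervated libraries lay below both sham libraries, and within each surgery the FGF21KO library was the lower. The log2 ratios for denervation were -0.79 (-0.94 to -0.64) in WT and -0.81 (-0.97 to -0.65) in FGF21KO. The log2 fold over both genotypes was -0.80 (SE 0.098, adjusted p-value of 7.96e-07), and the call held under each of the 9 alternative settings.

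Ppard encodes PPARδ, the PPAR that endurance training and oxidative fibres are known for. Its level was 35.5 CPM in WS, 30.5 CPM in WD, 37.7 CPM in KS and 29.8 CPM in KD. The denervated libraries were lower, by a smaller margin than for Ppara, with log2 ratios of -0.22 (-0.35 to -0.08) in WT and -0.34 (-0.47 to -0.21) in FGF21KO. The log2 fold was -0.28 (SE 0.089, adjusted p-value of 0.0128). The fall was not called by DESeq2 (adjusted p-value of 0.106) and turned to 0.04 with total counts as the scale. The ratio of Ppara to Ppard per length went from 1.98 to 1.33 in WT and from 1.54 to 1.11 in FGF21KO. Per length, Ppara thus remained the higher of the pair in all 4 libraries. In CPM, Ppard was the higher in WD, KS and KD.

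Nrf1, not to be confused with Nfe2l1, encodes the factor that binds the GCGCATGC type of motif in many nuclear genes of the respiratory chain. It had the lowest level per length of the 8, and its scaled counts were 14.5 CPM in WS, 12.8 CPM in WD, 14.0 CPM in KS and 10.4 CPM in KD. The ratio for WD vs. WS was within counting error (log2 ratio -0.18, -0.39 to 0.03), and that for KD vs. KS was not (-0.42, -0.64 to -0.21). Its log2 fold of -0.30 (SE 0.13) just missed the threshold, with an adjusted p-value of 0.0506. Nrf1 crossed the threshold in 5 of the 9 alternative settings, with adjusted p-values of 0.0337 (DESeq2's size factors in edgeR) to 0.0453 (TMM factors after the filter), and with total counts as the scale it had a log2 fold of 0.01.

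Gabpa encodes the DNA-binding subunit of the ETS factor GABP, also called NRF-2. It was measured at 45.6 CPM in WS, 43.5 CPM in WD, 45.3 CPM in KS and 39.1 CPM in KD. KD was the lowest, and the ratio for WD vs. WS was within counting error (log2 ratio -0.06, -0.18 to 0.05). The log2 fold of -0.14 (SE 0.084) did not pass the test (adjusted p-value of 0.173). With total counts as the scale the value was 0.18, also not past the test. The Gabpa exons share 397 bases, 6.98% of their length, with Atp5j on the opposite strand, an ATP synthase subunit at 359 to 477 CPM whose log2 fold was -0.33. The library kit keeps the strand, but whether the counting used it is not given in the sources used here, so a part of the Gabpa counts is uncertain.

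Tfam was measured at 56.2 CPM in WS, 48.5 CPM in WD, 53.5 CPM in KS and 47.2 CPM in KD. The fall was nearly the same in both genotypes, with log2 ratios of -0.21 (-0.32 to -0.10) and -0.18 (-0.29 to -0.08). The log2 fold over both was -0.20 (SE 0.079, adjusted p-value of 0.0423), which made Tfam the smallest of the calls. It was lost with DESeq2 (adjusted p-value of 0.191), and the fold was 0.12 with total counts as the scale.

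In all, 5 of the 8 regulators were lower at an adjusted p-value below 0.05, beside 26.6% of all genes tested, and the median log2 fold over the 8 was -0.29 beside 0.01 over all genes. Scaling by total counts moved the median of all genes to 0.33. A change of scale shifts all genes by nearly the same amount, so the folds relative to that median hardly moved by construction. These relative folds (0.23 for Ppargc1a, -1.02 for Esrra, -0.21 for Tfam) are therefore no check of the calls. Ratios between regulators within a library do not depend on the scaling. The Ppargc1a to Esrra ratio per length went from 0.217 in WS to 0.647 in WD and from 0.268 in KS to 0.510 in KD. That is a log2 difference of 1.58 (1.45 to 1.70) in WT and 0.93 (0.81 to 1.05) in FGF21KO. Esrra to Tfam went the other way, from 2.81 to 1.51 in WT and from 2.68 to 1.61 in FGF21KO.

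**Figure D2:**
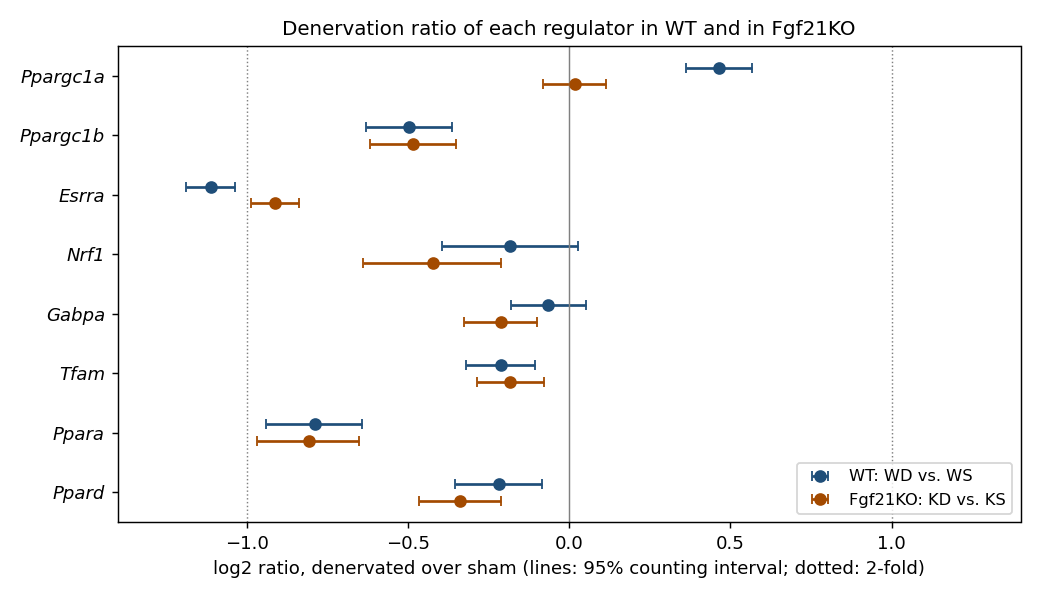
Log2 ratio of denervated over sham (x axis) for each of the 8 regulators (y axis) in WT (WD vs. WS, blue) and FGF21KO (KD vs. KS, orange), with 95% counting intervals as lines and dotted lines at 2-fold. Ppargc1a was at 0.46 in WT and 0.02 in FGF21KO, Esrra at -1.11 and -0.91, and the points of the other 6 overlapped in their intervals.

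Per length of exon (GENCODE M21), Esrra and Tfam were the highest of the 8 in every library and Ppard and Nrf1 the lowest. Esrra was at 35.6 CPM per kilobase in WS, percentile 92.4 of the 12572 genes with a length, and at 16.5 in WD, percentile 83.6. Nrf1 was at 1.41 and 1.24 CPM per kilobase, percentiles 29.1 and 25.9. The genes between them changed places. Ppargc1a stood in position 6 in WS and 4 in KS, and in position 3 in both WD and KD, where it came next to Tfam. In WS, Ppargc1a at 7.73 and Gabpa at 8.01 CPM per kilobase lay close together, and so did Ppargc1b at 9.80 and Ppara at 9.32. In WD, Tfam at 10.9 and Ppargc1a at 10.7 did.

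**Figure D3:**
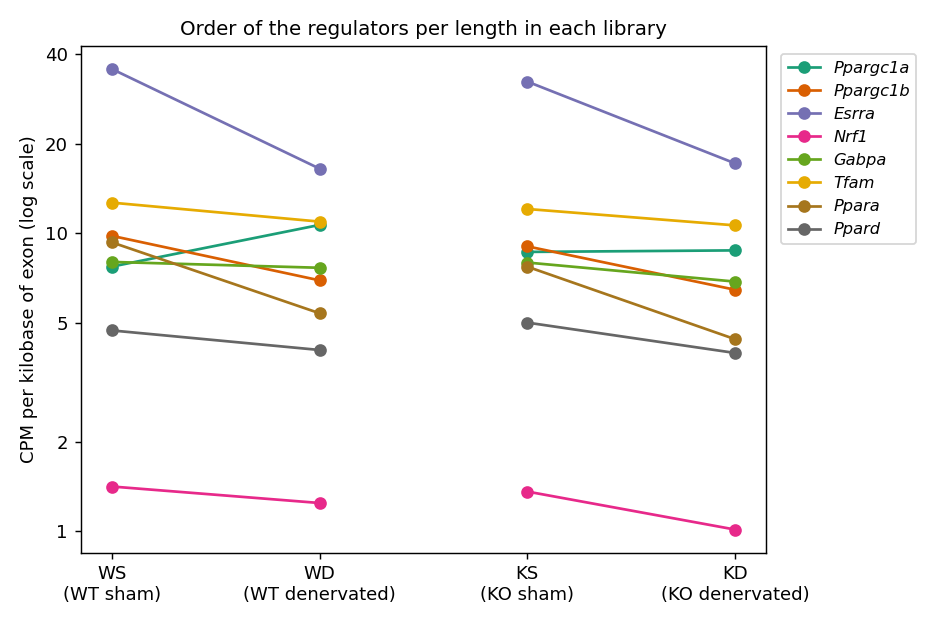
CPM per kilobase of exon (y axis, log scale) of the 8 regulators in the 4 libraries (x axis), with a line joining sham and denervated libraries of the same genotype. Esrra kept the top position while falling from 35.6 to 16.5 in WT, and Ppargc1a moved from position 6 in WS to position 3 in WD.

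The comparison of KS with WS and of KD with WD asked whether loss of Fgf21 changed these regulators. In the additive model none of the 8 passed the test for genotype, beside 0.573% of all genes tested, or 0.168% with the 2-fold threshold, and none passed with DESeq2 or limma. At an unadjusted p-value below 0.05 there was 1, Ppara, with a log2 fold of -0.28 (SE 0.097, p-value of 0.00955 and adjusted p-value of 0.383). No regulator was 2-fold apart in KS vs. WS, beside 2.04% of genes, or in KD vs. WD, beside 1.56%. The log2 ratios of Ppara were -0.27 (-0.41 to -0.13) in sham and -0.29 (-0.46 to -0.12) in denervated muscle. For Ppargc1a they had opposite signs, at 0.16 (0.06 to 0.27) in sham and -0.28 (-0.37 to -0.19) in denervated muscle. Both intervals leave out 0, a pattern shared by 4.49% of all genes, but with total counts as the scale the ratio in sham was 0.08.

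Whether the response to denervation differed between the genotypes could not be tested, since that difference is the residual of the model. By counting error alone, 2 of the 8 differed, beside 29.3% of all genes tested. The log2 ratio of Ppargc1a was lower in FGF21KO than in WT by a difference of -0.45 (-0.59 to -0.31), and 17.8% of genes had a difference at least as large. For Esrra the fall was smaller in FGF21KO, with a difference of 0.20 (0.10 to 0.30), and 44.9% of genes had one as large. The intervals of the other 6 included 0, the widest being that of Nrf1 (-0.53 to 0.06).

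Around these regulators, lists of related genes were followed through the same test, to be read beside the 26.4% of all genes tested that rose and the 26.6% that fell. Of 26 relatives, partners and cofactors of PGC-1, 2 (7.69%) rose and 12 (46.2%) fell, with a median log2 fold of -0.19. With total counts as the scale this split turned to 12 higher and 5 lower. On that scale 6114 of all 13084 genes tested were higher and 1674 lower. Splits given below for that scale are to be read beside these counts, not beside the shares above. The retinoid X receptors Rxrg (log2 fold -1.94) and Rxra (-1.32), the obligate partners of the PPARs, fell the most, and so did the thyroid hormone receptor gene Thra (-1.30). Esrrg, the ERR gene known from oxidative muscle, rose while Esrra fell, from 40.8 CPM in WS to 69.6 CPM in WD and from 38.9 CPM in KS to 54.1 CPM in KD (log2 fold 0.62). Foxo1, an atrophy factor that PGC-1α also binds, rose by 1.45.

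Of 24 genes for inputs to Ppargc1a, 6 (25%) rose, near the share of all genes, and 15 (62.5%) fell (median -0.36). With total counts as the scale 8 were higher and 10 lower, beside 6114 and 1674 of all 13084 genes tested. Prkaa2 and Prkab2, which encode subunits of the energy sensor AMPK, fell with log2 folds of -1.19 and -1.17. Of the other AMPK subunit genes in the list, Prkag1 fell (-0.53) and Prkaa1 rose (0.57). Prkab1 did not pass the test (0.11, adjusted p-value of 0.477). Hdac4, a repressor of MEF2 known to accumulate after denervation, rose from 44.3 CPM in WS to 289 CPM in WD and from 41.5 CPM in KS to 298 CPM in KD (log2 fold 2.78). Mknk2, a kinase gene of the MAPK pathway, rose by 1.42.

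Of 32 genes for maintenance and transcription of mitochondrial DNA, the work in which Tfam takes part, 12 (37.5%) rose and 6 (18.8%) fell, with a median of 0.19, beside 26.4% and 26.6% of all genes. Total counts as the scale gave 22 higher and 1 lower, beside 6114 and 1674 of all 13084 genes tested. DESeq2 gave 3 higher, beside 2205 of all genes tested. Primpol, a primase-polymerase (1.30), and Tfb1m, a methyltransferase of mitochondrial ribosomal RNA (0.74), rose. The nuclease gene Mgme1 (-0.72) and Polrmt, the mitochondrial RNA polymerase (-0.37), fell, but the call for Polrmt was lost with total counts as the scale (-0.05, adjusted p-value of 0.661). All 13 protein genes encoded by mitochondrial DNA fell, with a median of -0.81. The largest fall was that of ND2 (-1.35), followed by ND4L (-0.96), and the smallest were those of CYTB (-0.66) and ND6 (-0.65). Together the 13 went from 27.0% to 19.4% of all counts in WT and from 30.4% to 20.6% in FGF21KO. ND6, whose strand differs from that of the others, was also the 1 gene of the pathway lists that passed the test for genotype (log2 fold 0.33, adjusted p-value of 0.0422).

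All 40 nuclear subunits of the respiratory chain and ATP synthase fell, with a median of -0.39, from Ndufs7 (-0.90) and Cox7a1 (-0.84) to Uqcrh (-0.19) and Atp5k (-0.17). Of 18 genes of the tricarboxylic acid cycle, 16 fell and none rose (median -0.44), with Idh3a at -0.92, Mdh2 at -0.75, Sucla2 at -0.22 and Dlst at -0.22. The 26 PPAR target genes were mixed, with 6 (23.1%) higher and 12 (46.2%) lower (median -0.16). Total counts as the scale turned the split to 12 higher and 7 lower, beside 6114 and 1674 of all 13084 genes tested. Cd36, a fatty acid carrier, went from 344 CPM in WS to 214 CPM in WD and from 366 CPM in KS to 221 CPM in KD, and Eci1, an enzyme of fat oxidation, fell by 0.73. Pdk4, the kinase that holds back pyruvate oxidation, went the other way, from 621 to 1007 CPM in WT and from 605 to 888 CPM in FGF21KO. Angptl4, an inhibitor of lipoprotein lipase, was at only 2.15 to 4.85 CPM and rose by 0.80, a call that DESeq2 did not make (adjusted p-value of 0.102).

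Among 13 other genes known to be induced by PGC-1 in muscle, 3 (23.1%) rose and 8 (61.5%) fell (median -0.32), beside 26.4% and 26.6% of all genes. The glucose transporter gene Slc2a4 (-1.23) and the growth factor gene Vegfa (-1.03) fell, and the peroxide-removing enzymes Gpx1 (1.25) and Cat (0.80) rose. Of 16 fibre type genes 6 were analysed here, of which 2 rose and 3 fell. The slow-fibre genes Tnnt1 (2.91) and Atp2a2 (2.21) rose, and the fast-fibre genes Tnni2 (-0.88) and Mylpf (-0.85) fell. Tnnc1, another slow-fibre gene, was at 1.72 to 3.13 CPM and did not pass (log2 fold 0.43, adjusted p-value of 0.191). With total counts as the scale, 14 of the 40 nuclear subunits and 8 of the 18 cycle genes were lower, beside 1674 of all 13084 genes tested. All 13 mitochondrially encoded genes were still lower.

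**Figure D4:**
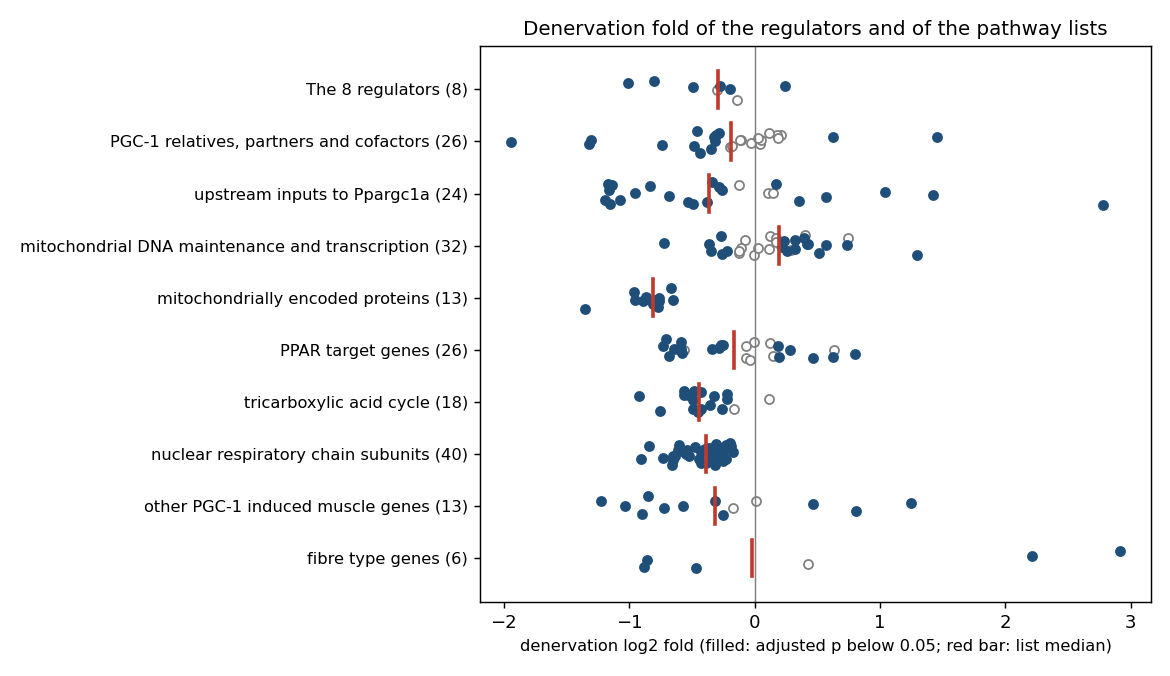
Denervation log2 fold from the additive model (x axis) of every tested gene in each list (y axis, number of genes in brackets), with filled points at an adjusted p-value below 0.05, open points above it and a red bar at the list's median. The 40 nuclear respiratory chain subunits and the 13 mitochondrially encoded genes lie to the left of 0, with medians of -0.39 and -0.81, while the regulators run from -1.01 to 0.24.

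Markers of other cell types moved with denervation as well. Their counts are to be read beside the 26.4% of all genes tested that rose and the 26.6% that fell. The Schwann cell, muscle fibre, adipocyte and satellite cell lists hold too few genes to be set against those shares. All 8 endothelial markers fell, and their summed level was 448 to 541 CPM in the sham libraries and 244 to 252 CPM in the denervated libraries. Of 10 macrophage markers, 8 rose, from a summed 33.0 to 33.3 CPM in sham to 71.3 to 71.6 CPM after denervation. Of 8 fibroblast or fibro-adipogenic progenitor markers 6 fell, from a summed 837 to 882 CPM to 537 to 580 CPM. Pdgfra and Lum did not pass the test (log2 folds -0.35 and -0.14, adjusted p-values of 0.054 and 0.321). Of 3 Schwann cell markers 2 fell, from a summed 53.1 to 53.7 CPM to 22.1 to 22.6 CPM. None of the 2 adipocyte markers and the 1 satellite cell marker passed for denervation, with summed levels of 11.6 to 21.0 CPM and 3.83 to 5.52 CPM. The adipocyte marker Cfd passed the test for genotype, with 19.7 CPM in WS, 17.0 CPM in WD, 13.3 CPM in KS and 10.8 CPM in KD (log2 fold -0.61, adjusted p-value of 0.0123). Of the 4 muscle fibre markers analysed, Myh1 and Mylpf fell, Des rose and Neb did not pass, and their sum went from 43839 to 47000 CPM in sham to 36039 to 37298 CPM after denervation. No cardiomyocyte marker was analysed here. The part of these other cells in the values of Esrra, Ppara and the other regulators was not tested.

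The genes whose pattern over the 4 libraries was most like that of Ppargc1a, by the root mean square difference of centred log2 CPM among 10179 genes, were Gtf2e1 (0.0047), Slc16a6 (0.023), Tmem106c (0.026), Rars2 (0.026) and Mbip (0.031). Gtf2e1, for example, was at 14.4 CPM in WS, 19.8 CPM in WD, 16.2 CPM in KS and 16.4 CPM in KD. With 4 libraries such likeness is loose, and no other regulator was near: the closest was Gabpa in position 3684, and the farthest was Esrra in position 9320.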

How the data were processed

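TA muscle RNA was measured as 1 library per group, 4 in all, made with a stranded mRNA kit. The authors deposited raw read counts for each gene and another table on the log2 scale. Multiplying a library's counts by a constant, adding 1 and taking log2 gives the deposited log2 values, so they hold no length correction although the authors named them for FPKM. The labels name the build GRCm39 and FastQC, and the aligner and counter are not given in the sources used here. Lengths and overlaps come from GENCODE M21 on GRCm38 (13114 genes matched) and promoter windows from RefSeq on GRCm38.p6, so no position was taken from the build of the counts.

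Groups came from the labels. Genes averaging at least 10 counts (13084) were tested in R 4.3.3 with edgeR 4.0.16 (TMM, quasi-likelihood, Benjamini-Hochberg), with the study's thresholds (0.05 for the adjusted p-value and 1 for the size of the log2 fold). The model has 1 residual degree of freedom, and its common coefficient of variation was 0.068. A prior of 18.5 degrees of freedom was borrowed across genes, so SEs and p-values rest mostly on variation shared over genes. With pooled libraries they do not measure the spread between mice. Ratios of 2 libraries used log2 CPM at a prior count of 2, with exact 95% counting intervals (Clopper-Pearson) in scipy 1.17.1, and differences of ratios used normal intervals on the log counts. At 3 counts the level was 0.092 to 0.129 CPM. In a simulation of counts, 200 of 13084 genes were changed 4-fold. With the 2-fold threshold the denervation test recovered a median of 98.5% of them and called 0 unchanged genes. Far more genes passed the test in the real data, and the folds of the regulators were smaller. The simulation does not measure how well such folds are called.

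Named genes were the 8 regulators, the 2 highest and 2 lowest passing genes of each list, PGC-1 relatives past the 2-fold call, and the 5 genes most like Ppargc1a at a mean count of at least 100. Pprc1, Prkaa1, Prkab1, Prkag1, Tnnc1, Trmt112 and Atp5j, the check genes and the marker genes fall outside that rule. The regulators and lists were chosen with earlier results of these data known. Of the symbols listed, some were not analysed here. Other settings tried were size factors of DESeq2, total counts with and without the mitochondrially encoded genes, no filter or a mean count of 50, prior counts of 0.125 and 5, DESeq2 1.42.0, limma 3.58.1 on the deposited log2 table (pseudocount 1 or 0.1), and edgeR's exact test at an assumed variation of 0.1 or 0.4. TMM factors computed after the filter were added after seeing the data.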

Additional observations from a re-analysis of the deposited data

Results flagged for a closer look

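Among the regulators and the genes named from the pathway lists, 4 had genotype ratios of opposite sign in sham and denervated muscle, each beyond counting error, and the difference was not tested in any of them. For Ppargc1a the log2 ratio of FGF21KO over WT was 0.16 in sham and -0.28 in denervated muscle, a difference of -0.45. The sham ratio dropped to 0.08 when total counts set the scale. For Prkaa2, the muscle AMPK catalytic subunit gene, it was 0.08 and -0.20, a difference of -0.28. For Idh3a, a subunit of isocitrate dehydrogenase, it was 0.14 and -0.07, a difference of -0.20. For Dlst, a subunit of the 2-oxoglutarate dehydrogenase complex, it was 0.06 and -0.04, a difference of -0.10. The pattern was seen in 587 of the genes tested (4.49%), and each group was 1 library.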

How the results depend on the processing

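The scaling mattered most. With total counts only, the median log2 fold of all genes for denervation was 0.33, and with total counts without the mitochondrially encoded genes it was 0.16, against 0.01 with TMM. The split of genes higher and lower at an adjusted p-value below 0.05 then went from 3450 and 3474 to 6114 and 1674, and to 4790 and 2582. With total counts only, the sign turned for Nrf1 (0.015), Gabpa (0.18), Tfam (0.12), Ppard (0.040), Sucla2 (0.10), Dlst (0.10), Uqcrh (0.13) and Atp5k (0.15), and that of Gabpa also without the mitochondrially encoded genes (0.013). Under both of these scalings 0 regulators were called with the 2-fold threshold, and 0 were 2-fold apart in WD vs. WS, as also by the exact test at an assumed variation of 0.4.

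The number of regulators past the adjusted p-value, 6 with the settings reported, was 7 in 4 settings, 4 with total counts without the mitochondrially encoded genes, and 3 with total counts only and with DESeq2. Of the 13084 genes tested, 3450 were higher and 3474 lower with the settings reported. DESeq2 gave 2205 and 2487, and total counts only gave 6114 and 1674. Total counts without the mitochondrially encoded genes gave 4790 and 2582. The counts of regulators are to be read beside these. In the lists, total counts only gave 12 PGC-1 relatives higher (6 without the mitochondrially encoded genes) and 5 lower, 22 genes of mitochondrial DNA maintenance higher and 1 lower (2 without the mitochondrially encoded genes), 12 PPAR targets higher and 7 lower, 2 cycle genes higher (1 without the mitochondrially encoded genes) and 8 lower, and 1 nuclear subunit higher and 14 lower. DESeq2 gave 3 genes of mitochondrial DNA maintenance and 2 PPAR targets higher.

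Denervation lowered Esrra and Ppara past an adjusted p-value of 0.05 under each of the 9 alternatives, with log2 folds of -1.03 to -0.69 and -0.82 to -0.48. The fold of Ppargc1a was positive under each, from 0.22 to 0.56, with adjusted p-values from 0.000356 to 0.192. Counts of regulators for genotype stayed at 0 under each alternative. No paired analysis by mouse was possible because a group holds a single pooled library, though the genotype term already sets each denervated library against the sham library of its genotype. Leaving out a library was not run, since the model would then have no residual degree of freedom.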
